A study of Mus musculus with 30 samples.

Results

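The CCR4-NOT complex is the main cytoplasmic deadenylase of animal cells, and the mRNA levels and half-lives of 10 of its subunits were examined in mouse spermatogonial stem cell (SSC) lines. The subunits were chosen by name: *Cnot1*, *Cnot2*, *Cnot3*, *Cnot6*, *Cnot6l*, *Cnot7*, *Cnot8*, *Cnot9*, *Cnot10* and *Cnot11*. All 10 were among the 13904 genes with an RNA-seq value, and 8 were among the 5806 transcripts with a half-life. *Cnot2* and *Cnot3* had no half-life in the tables used here. SSC lines are cultures of the stem cells of the male germline, derived here from testes at postnatal day 7 and grown on embryonic fibroblast feeders. Both lines analysed carry *Nanos2* with a tag fused to the protein, an RNA-binding protein that keeps these stem cells undifferentiated. Line 4 (*Nanos2* TAG/+, called the TAG/+ line below) has 1 tagged allele and 1 untagged allele, and line 5 (*Nanos2* TAG/TAG, called the TAG/TAG line) has only tagged alleles, so neither lacks NANOS2. Each genotype was 1 line.

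RNA-seq was 1 library per line, from feeder-depleted cells whose RNA was extracted with QIAzol (TAG/+) or Trizol (TAG/TAG). Genotype, line and extraction reagent therefore cannot be told apart. The study's methods describe sorted SSCs for RNA-seq and name QIAzol alone, with no difference by line. The authors deposited FPKM, that is reads per length of the gene and per a size set for the library. These values corresponded to whole reads, 10977831 in the TAG/+ library and 11656606 in the TAG/TAG library. The library sizes that gave whole reads were 10908790 and 11738620, so the values were not scaled to the plain sum of these reads. Intervals below are exact 95% intervals of those reads. They cover counting error only, and without replicates no p-value was computed. Half-lives came from SLAM-seq, in which newly made RNA is labelled with 4-thiouridine and the loss of label is followed in a chase without it. The authors fitted 1 half-life per transcript and line over 12 libraries (6 chase times up to 1440 min, 2 technical replicates each), all extracted with Trizol. The half-lives carry no error, so the precision of a single value is unknown. In these bulk samples fewer cells of a type and less RNA per cell cannot be told apart.

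The SSC label was checked with marker genes. Of 14 markers of undifferentiated spermatogonia 13 had an FPKM and all 13 were above 1 in both lines. Of these, 5 were higher by more than 1.5-fold in the TAG/TAG line and 0 lower, led by *Bcl6b* (23.1 FPKM in the TAG/+ line and 225 in the TAG/TAG line) and *Etv5* (46.0 and 178). The list did not move as a whole. Its median log2 ratio between the lines, at a pseudocount of 0.1 FPKM, was 0.03, beside 0.01 over all genes. Some markers were lower within 1.5-fold, such as *Pou5f1* (50.5 and 35.9) and *Lin28a* (117 and 96.5). *Nanos2* itself had 27.5 and 23.8 FPKM, which do not distinguish tagged from untagged alleles. Of 9 fibroblast markers with an FPKM 5 were higher and 0 lower in the TAG/TAG line by the same fold. Their summed FPKM was 395 and 562, of which *Fn1* alone held 254 and 280. Over all genes 22.8% were higher and 19.4% lower past 1.5-fold, beside which the counts of each marker list are to be read. The 4 markers of differentiating spermatogonia and early meiosis summed to 68.2 and 47.9 FPKM, with 2 lower and 0 higher. Sertoli and Leydig cell markers, 3 with an FPKM, summed to 7.46 and 8.04, with 2 higher and 1 lower. The higher ones were *Sox9* (2.19 and 4.49) and *Gata4* (0.643 and 2.35), and the lower one *Star* (4.62 and 1.20). The part of these marker differences in the subunit values was not tested.

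CCR4-NOT shortens the poly(A) tail of cytoplasmic mRNAs, which is the step that usually starts their decay. CNOT1 is the scaffold on which the other subunits assemble. CNOT10 and CNOT11 bind its N-terminal part, CNOT9 its middle, and CNOT2 and CNOT3 its C-terminal part. Nuclease activity comes from 2 kinds of enzyme: CNOT7 or CNOT8, of the DEDD family, docks on CNOT1, and CNOT6 or CNOT6L, of the EEP family, joins through CNOT7 or CNOT8. RNA-binding proteins, NANOS proteins among them, bring the complex to chosen mRNAs by contacts with CNOT1, CNOT3 or CNOT9. In what follows *Cnot1*, *Cnot2*, *Cnot3*, *Cnot9*, *Cnot10* and *Cnot11* are called the scaffold side, which are 6 genes, and *Cnot6*, *Cnot6l*, *Cnot7* and *Cnot8* the catalytic subunits, which are 4.

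Sequence matches in the subunits' own 3′ UTRs are shown first, because the study looked for the motif that NANOS2 contacts in mRNAs. The motif was searched as 7 DNA letters on the sense strand, with the spelling ATGAAAT, the spelling ATGAATT, the spelling ATTAAAT or the spelling ATTAATT. Only *Cnot6l* and *Cnot11* held any. *Cnot6l* (chromosome 5, 96070333 to 96164171, minus strand, GRCm38) had 7 matches in a 3′ UTR of 6847 nt, and *Cnot11* (chromosome 1, 39534992 to 39546889, plus strand) had 1 in 1623 nt. The *Cnot11* match and the first match of each spelling in *Cnot6l* are given with 10 bases on each side, 5′ to 3′ on the mRNA strand and with the motif in capitals. All lie in the last exon, exon 12 of 12 in *Cnot6l* and exon 8 of 8 in *Cnot11*.
Cnot11, chr1:39545407-39545433, plus strand: tttcccatggATGAATTttggtgagaa
Cnot6l, chr5:96076623-96076649, minus strand: tgatttgtacATTAAATttgatatagc
Cnot6l, chr5:96075567-96075593, minus strand: ccattatgtgATGAAATttaaaaagaa
Cnot6l, chr5:96072139-96072165, minus strand: ttcaaaggatATGAATTaagggcgtgc
Cnot6l, chr5:96071132-96071158, minus strand: cattaagatgATTAATTtattgttttg

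A match says only that these letters are present. Of the 129 genes with a 3′ UTR within 10% of the length of that of *Cnot6l*, 93.8% held a match, and of the 858 like *Cnot11* 47.0% did. The 3′ UTRs of the other 8 subunits, from 283 nt (*Cnot3*) to 1988 nt (*Cnot9*), held 0 matches, and among genes of like length the share with a match was 14.8% for *Cnot3* and 51.2% for *Cnot9*. Over all 12342 3′ UTRs searched 38.7% held a match, against 2 of the 10 subunits. The density was 0.496 matches per kb over the 10 subunits and 0.494 over all genes, but 7 of the 8 matches in the subunits lie in *Cnot6l*. The scaffold side held 0.157 matches per kb and the catalytic subunits 0.716. The 3′ UTR of *Cnot6l* had matches as most 3′ UTRs of its length did.

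The subunits lay mostly in the upper part of the expression range, and the scaffold side lay above the catalytic subunits. Median FPKM of all genes was 10.2 in the TAG/+ line and 10.5 in the TAG/TAG line. Of the 10 subunits 8 and 9, respectively, were above it. The scaffold side had a median FPKM of 102 in the TAG/+ line (46.7 to 264) and 104 in the TAG/TAG line (29.5 to 251). The catalytic subunits had a median of 17.1 (5.74 to 28.9) and 14.98 (8.91 to 19.2). Each scaffold-side gene was higher than each catalytic gene in both lines, in 24 of 24 pairs. The gap between the sets was narrow, since *Cnot2*, the lowest of the scaffold side, was 1.62-fold above *Cnot7*, the highest catalytic subunit, in the TAG/+ line and 1.53-fold above it in the TAG/TAG line.

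**Figure D1:**
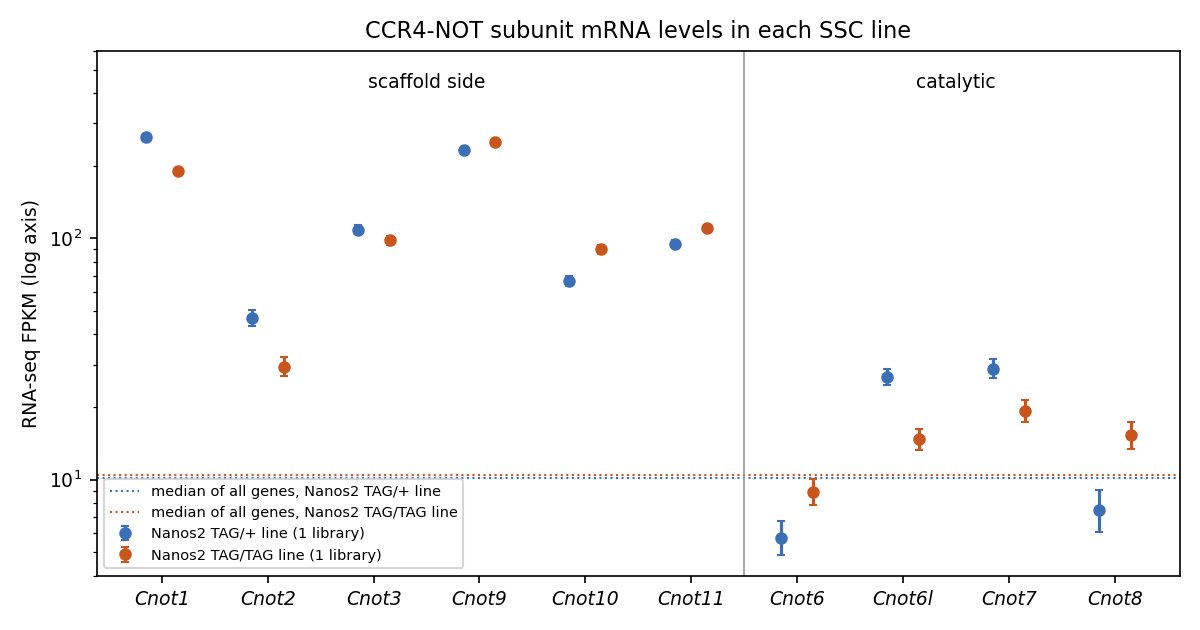
RNA-seq FPKM (log axis) of each subunit in the TAG/+ line (blue) and the TAG/TAG line (orange), 1 library each, with exact 95% Poisson intervals for counting error. Dotted lines mark the median FPKM of all genes, 10.2 and 10.5; the 6 scaffold-side genes at the left sit above all 4 catalytic genes in both lines.

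Levels between genes depend on the gene length used, which bears on *Cnot1* and *Cnot6l* most. The deposited values divide by the mean length of all annotated transcripts of a gene, short fragments included. For *Cnot1* this is 3126 nt over 17 transcripts, whereas its principal transcript has 8364 nt. For *Cnot6l* the lengths are 2247 and 8564 nt. With reads divided by the principal transcript, *Cnot1* had 98.8 FPKM in the TAG/+ line and 71.0 in the TAG/TAG line, and *Cnot9* had 116 and 125, so that *Cnot9* was the highest in both lines. *Cnot6l* then had 7.0 and 3.86 FPKM. All 24 scaffold-side against catalytic pairs kept their order with this length and with the length of merged exons. The gap between *Cnot2* and the highest catalytic subunit was then 1.24-fold (TAG/+) and 1.18-fold (TAG/TAG) with principal transcripts. With merged exons it was 1.89-fold and 1.31-fold. The ratio of the medians was 5.96 and 6.95 with the deposited values, 10.9 and 8.03 with principal transcripts, and 8.14 and 7.79 with merged exons. Ratios of 1 gene between the lines do not depend on this length.

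Between the lines the subunits did not move together. FPKM was higher in the TAG/TAG line for 5 subunits and lower for 5, and the median log2 ratio, at a pseudocount of 0.1 FPKM, was -0.02 over the subunits and 0.01 over all genes. Past 1.5-fold were 5 of 10 subunits, where 42.2% of all 13904 genes were past it. *Cnot6* and *Cnot8* were higher, as 22.8% of all genes were. *Cnot2*, *Cnot6l* and *Cnot7* were lower, as 19.4% of all genes were. The subunits' count is thus close to that of genes at large. With genes under 1 FPKM in either line set aside the share of genes was 34.3%, and with those under 100 reads in both libraries together 33.6%. *Cnot8* alone was past 2-fold, where 23.1% of genes were. The counting interval of the ratio excluded 1 for all 10 subunits and for 68.4% of the 13884 genes with reads.

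On the scaffold side, *Cnot1* (chromosome 8, 95719451 to 95807464, minus strand) had 264 FPKM in the TAG/+ line (9019 reads, interval 259 to 270.0) and 190 in the TAG/TAG line (6970 reads, 185 to 194). The scaffold mRNA was lower in the TAG/TAG line by 1.39-fold (1.35 to 1.44), short of 1.5-fold. A processed pseudogene on chromosome 14, *Gm6158* (24069734 to 24070637), shares 88.2% of its 50-mers with *Cnot1* transcripts and was listed at 68.1 and 94.1 FPKM, from 672 and 999 reads. How the authors' counting assigned such reads is not given in the sources used here, and with both genes summed the difference was 1.31-fold (1.27 to 1.35).

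The NOT module subunits differed in the size of the difference. *Cnot2* (chromosome 10, 116485161 to 116581511) had 46.7 FPKM in the TAG/+ line (682 reads, 43.2 to 50.3) and 29.5 in the TAG/TAG line (463 reads, 26.8 to 32.3). It was 1.59-fold lower in the TAG/TAG line (1.41 to 1.79), and the only scaffold-side gene past 1.5-fold. *Cnot3* (chromosome 7, 3645268 to 3661109), which pairs with CNOT2, had 109 FPKM (2226 reads, 104 to 113) and 98.2 (2163 reads, 94.1 to 102). Its levels were nearly equal, 1.11-fold lower in the TAG/TAG line (1.04 to 1.18). Of its 50-mers 13.5% occur in other transcripts, among them the pseudogene *Gm9207* and the antisense neighbour *Leng1*, at 0.688 to 8.17 FPKM.

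The remaining scaffold-side subunits were all higher in the TAG/TAG line, none by 1.5-fold. *Cnot9* (chromosome 1, 74506058 to 74530842), which encodes the subunit that docks GW182 proteins and other adaptors, had 233 FPKM (4124 reads, 226 to 240.1) and 251 (4786 reads, 244 to 258), a ratio of 1.08 (1.03 to 1.12). It was second to *Cnot1* in the TAG/+ line and above it in the TAG/TAG line. *Cnot10* (chromosome 9, 114585878 to 114640184) had 66.4 FPKM (1722 reads, 63.3 to 69.6) and 90.1 (2514 reads, 86.6 to 93.6), a ratio of 1.36 (1.28 to 1.44). Its partner in the N-terminal module, *Cnot11*, had 94.6 FPKM (2419 reads, 90.9 to 98.4) and 110.1 (3030 reads, 106 to 114), a ratio of 1.16 (1.1 to 1.23). Both partners were higher in the TAG/TAG line while the scaffold they bind was lower.

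Among the catalytic subunits each enzyme family had 1 member higher and 1 lower in the TAG/TAG line. Of the EEP enzymes, *Cnot6* (chromosome 11, 49671503 to 49712723) had 5.74 FPKM in the TAG/+ line (149 reads, 4.85 to 6.74) and 8.91 in the TAG/TAG line (249 reads, 7.84 to 10.1). *Cnot6l* had 26.7 FPKM (654 reads, 24.7 to 28.8) and 14.7 (388 reads, 13.3 to 16.3). *Cnot6* was 1.55-fold higher in the TAG/TAG line (1.26 to 1.92) and *Cnot6l* was 1.81-fold lower (1.60 to 2.06). Of the DEDD enzymes, *Cnot7* (chromosome 8, 40492540 to 40515847) had 28.9 FPKM (514 reads, 26.5 to 31.5) and 19.2 (368 reads, 17.3 to 21.3). *Cnot8* (chromosome 11, 58104153 to 58118594) had 7.46 FPKM (104 reads, 6.09 to 9.03) and 15.3 (229 reads, 13.3 to 17.4). *Cnot7* was 1.503-fold lower (1.31 to 1.72), just inside the threshold, and *Cnot8* was 2.05-fold higher (1.62 to 2.61). *Cnot8* and *Cnot6* rested on the fewest reads, and 7.82% of the 50-mers of *Cnot8* occur in the pseudogene *Gm18860*.

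In the order of levels within a line, few neighbours were inseparable by counting error. Intervals overlapped between *Cnot7* and *Cnot6l* and between *Cnot8* and *Cnot6* in the TAG/+ line. They also did between *Cnot7* and *Cnot8* and between *Cnot8* and *Cnot6l* in the TAG/TAG line. *Cnot6* was the lowest of the 10 in both lines with the deposited values.

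Because CNOT6 and CNOT6L are alternatives for one position in the complex, and CNOT7 and CNOT8 for another, each gene's share of its pair was computed. *Cnot6* made up 17.7% of the FPKM of *Cnot6* and *Cnot6l* in the TAG/+ line (15.2 to 20.5) and 37.7% in the TAG/TAG line (34.0 to 41.6). *Cnot8* made up 20.5% of the FPKM of *Cnot8* and *Cnot7* in the TAG/+ line (17.1 to 24.2) and 44.2% in the TAG/TAG line (40.1 to 48.4). In both pairs the scarcer mRNA held a larger share in the TAG/TAG line. The odds of a read coming from *Cnot6* rather than *Cnot6l* were 2.82 times as high there (2.20 to 3.60), and those of *Cnot8* rather than *Cnot7* 3.08 times as high (2.33 to 4.06). These odds ratios do not depend on gene length, whereas the shares do. With principal transcripts the share of *Cnot6* was 43.9% and 68.8%, which turns the pair over in the TAG/TAG line, and that of *Cnot8* was 20.6% and 44.4%. With merged exons *Cnot6* had 26.2% and 50.03% and *Cnot8* 30.9% and 57.9%.

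**Figure D2:**
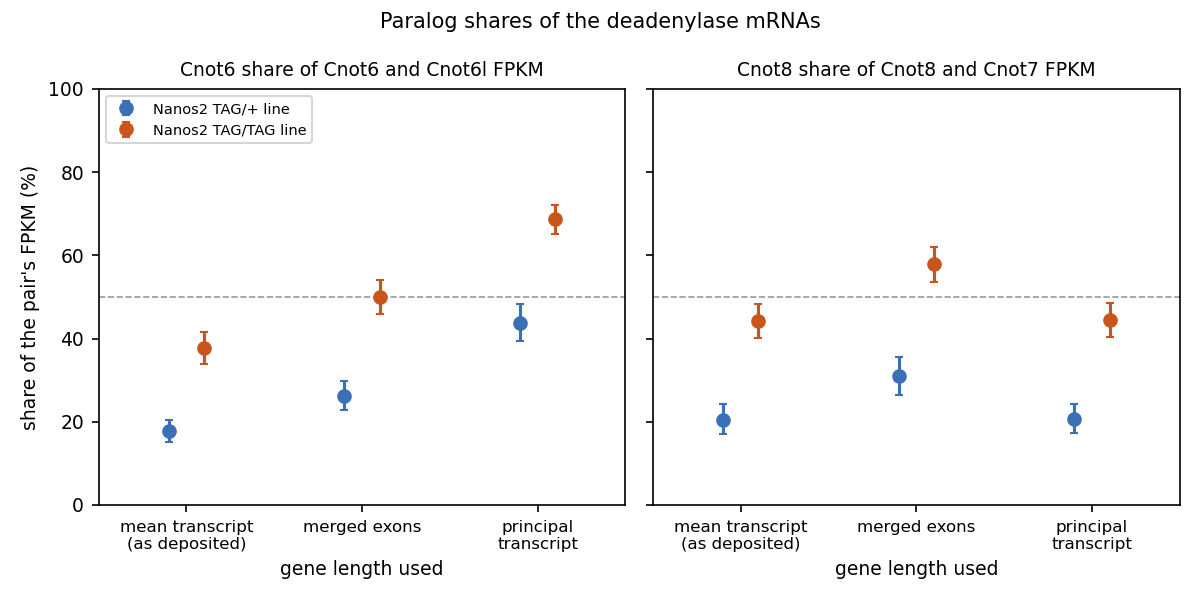
Share (%) of *Cnot6* in the FPKM of *Cnot6* and *Cnot6l* (left) and of *Cnot8* in that of *Cnot8* and *Cnot7* (right), in the TAG/+ line (blue) and the TAG/TAG line (orange), with exact 95% binomial intervals for counting error and for 3 choices of gene length. The dashed line is 50%; the orange point is above the blue one at every length, from 37.7% against 17.7% for *Cnot6* and 44.2% against 20.5% for *Cnot8* as deposited.

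Summed over each pair the lines differed less than single genes did. As deposited, the EEP pair summed to 32.4 FPKM in the TAG/+ line and 23.6 in the TAG/TAG line, and the DEDD pair to 36.4 and 34.5. All 4 catalytic mRNAs together came to 68.8 and 58.1 FPKM. *Cnot1* alone was 3.85 times this sum in the TAG/+ line and 3.27 times in the TAG/TAG line, as deposited. These sums depend on gene length. With merged exons *Cnot7* had 8.09 and 5.39 FPKM and *Cnot8* 3.62 and 7.40, so their sum was higher in the TAG/TAG line. With principal transcripts *Cnot6* had 5.47 and 8.49 FPKM and *Cnot6l* 7.0 and 3.86, so their sum was about equal between the lines. With either length *Cnot1* was a smaller multiple of the catalytic sum in both lines.

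Half-lives of the subunit mRNAs lay around those of other transcripts. The median of the 8 subunits with a value was 195 min in the TAG/+ line and 231 min in the TAG/TAG line. Over all 5806 transcripts the medians were 224 min (quartiles 162 and 289) and 226 min (quartiles 159 and 299.8) in the same order. Above the median were 3 and 4 of the 8 subunits. The scaffold side again lay above the catalytic subunits. *Cnot1*, *Cnot9*, *Cnot10* and *Cnot11* had a median of 256 min in the TAG/+ line and 247 min in the TAG/TAG line. The catalytic subunits had 148 and 179 min. The scaffold-side mRNA had the longer half-life in 15 of 16 pairs in the TAG/+ line and in 16 of 16 in the TAG/TAG line. The exception was *Cnot1*, shorter than *Cnot7* in the TAG/+ line.

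Among the scaffold-side mRNAs *Cnot1* had a half-life of 184 min in the TAG/+ line and 243 min in the TAG/TAG line, and *Cnot9* had 244 and 283 min. *Cnot10* had 456 and 251 min, and *Cnot11* 267 and 240 min. *Cnot10* thus had the longest half-life of the 8 in the TAG/+ line, at percentile 93.3 of all transcripts, but stood close to *Cnot1* and *Cnot11* in the TAG/TAG line, at percentile 59.8. Among the catalytic mRNAs *Cnot7* had the longest half-lives, 205 and 223 min. *Cnot6* had 148 and 175 min, *Cnot6l* 143 and 182 min, and *Cnot8* 148 and 124 min. The values of *Cnot6*, *Cnot6l* and *Cnot8* were below the first quartile of all transcripts in the TAG/+ line, and *Cnot8* alone was in the TAG/TAG line.

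**Figure D3:**
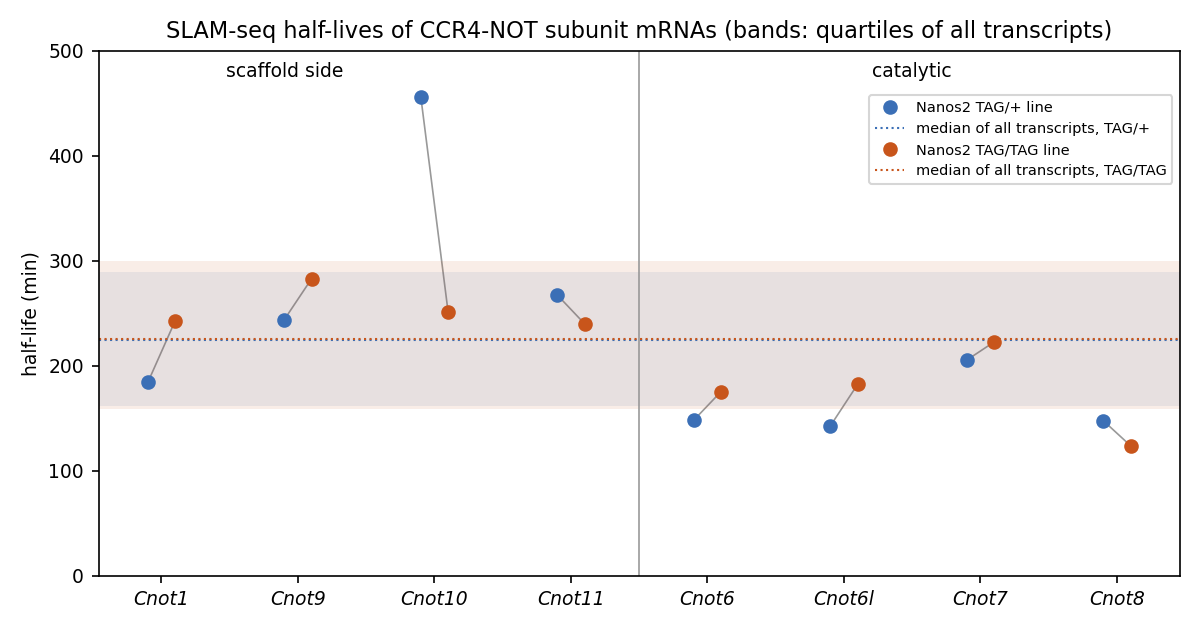
Half-life (min) of the 8 subunit mRNAs with a value, fitted by the authors without an error, in the TAG/+ line (blue) and the TAG/TAG line (orange). Bands span the quartiles of all 5806 transcripts and dotted lines their medians, 224 and 226 min; *Cnot10* stands apart at 456 min in the TAG/+ line, and the 4 catalytic mRNAs at the right lie below the medians.

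Between the lines 1 of 8 subunits was past 1.5-fold in half-life, where 20.7% of all transcripts were. This was *Cnot10*, 1.82-fold shorter in the TAG/TAG line, and 10.7% of all transcripts were past 1.5-fold in that direction. Among transcripts with half-lives up to the last chase time, 1440 min, 20.5% were past 1.5-fold. No subunit was past 2-fold, where 6.72% of transcripts were. Half-life was longer in the TAG/TAG line for 5 subunits (*Cnot1*, *Cnot6*, *Cnot6l*, *Cnot7* and *Cnot9*) and shorter for 3 (*Cnot8*, *Cnot10* and *Cnot11*). The median log2 ratio was 0.16 over the 8 subunits and 0.04 over all transcripts, and the median size of the log2 ratio was 0.25 and 0.27. Differences of the subunits' half-lives between the lines were thus of the size seen for other transcripts.

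Half-life and abundance differed between the lines in opposite directions for 6 of the 8 subunits. *Cnot1*, *Cnot6l* and *Cnot7* had a lower FPKM and a longer half-life in the TAG/TAG line. *Cnot8*, *Cnot10* and *Cnot11* had a higher FPKM and a shorter half-life there. *Cnot6* and *Cnot9* were higher and longer. Over the 5152 transcripts with both values the signs were opposite for 2597, or 50.4%.

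**Figure D4:**
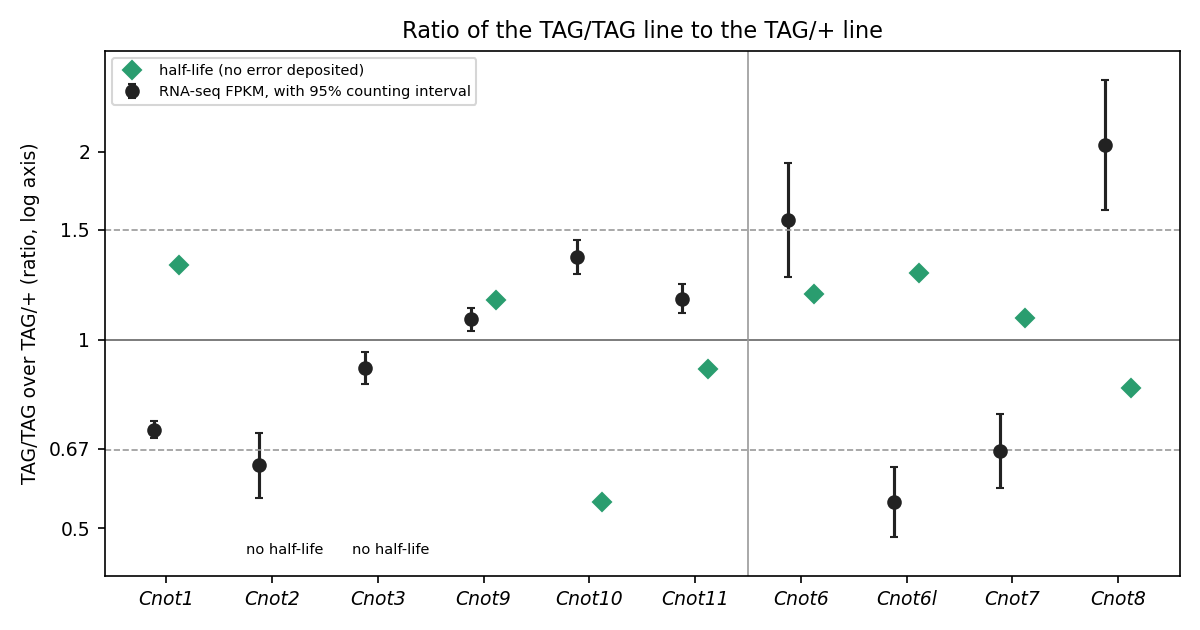
Ratio of the TAG/TAG line to the TAG/+ line (log axis) for RNA-seq FPKM (black, with exact 95% counting intervals) and for half-life (green, no error deposited). Dashed lines mark 1.5-fold in either direction; *Cnot10* has a ratio of 1.36 in FPKM and 0.551 in half-life, and *Cnot8* 2.05 and 0.838.

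Half-life was longer at higher expression over all transcripts, so each subunit was also set beside transcripts of like abundance. Transcripts were split into deciles of mean FPKM, of which the median half-life went from 149 min in the lowest to 339 min in the highest decile in the TAG/+ line and from 152 to 365 min in the TAG/TAG line. Most subunits were below the median of their decile. In the TAG/+ line 1 of 8 was above it (*Cnot10*) and in the TAG/TAG line 3 of 8 (*Cnot6*, *Cnot7* and *Cnot10*). In the TAG/TAG line *Cnot6* and *Cnot10* were close to the median, at 1.09 and 1.01 times, and their side of it depended on gene length. With principal transcripts they were at 0.916 and 0.915 times, and with merged exons at 1.01 and 0.974 times. *Cnot1* was the farthest below in the TAG/+ line, at 0.543 times the median of the highest decile and at percentile 3.49 of its 516 transcripts. In the TAG/TAG line it was at 0.665 times the median and percentile 13.0. *Cnot9*, in the same decile, was at 0.719 and 0.776 times the median. With FPKM of all genes computed from principal transcripts *Cnot1* was at 0.527 and 0.635 times the median of its decile, and with merged exons at 0.683 and 0.894 times. The scaffold mRNA was thus on the short side of its decile in both lines and with each gene length.

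Against their deciles the sets no longer separated. The median ratio to the decile's median was 0.855 for the scaffold side and 0.839 for the catalytic subunits in the TAG/+ line, and 0.820 and 0.955 in the TAG/TAG line. With merged exons the catalytic subunits had the higher median ratio in the TAG/+ line too. *Cnot10* was at 1.87 times its decile's median in the TAG/+ line and 1.01 times in the TAG/TAG line. *Cnot8* was at 0.780 and 0.651 times and *Cnot6l* at 0.706 and 0.873 times. *Cnot7* was within 4% of its decile's median in both lines, at 0.963 and 1.04 times. The decile of *Cnot6l* depends on gene length, and with principal transcripts its ratios were 0.854 and 1.11.

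**Figure D5:**
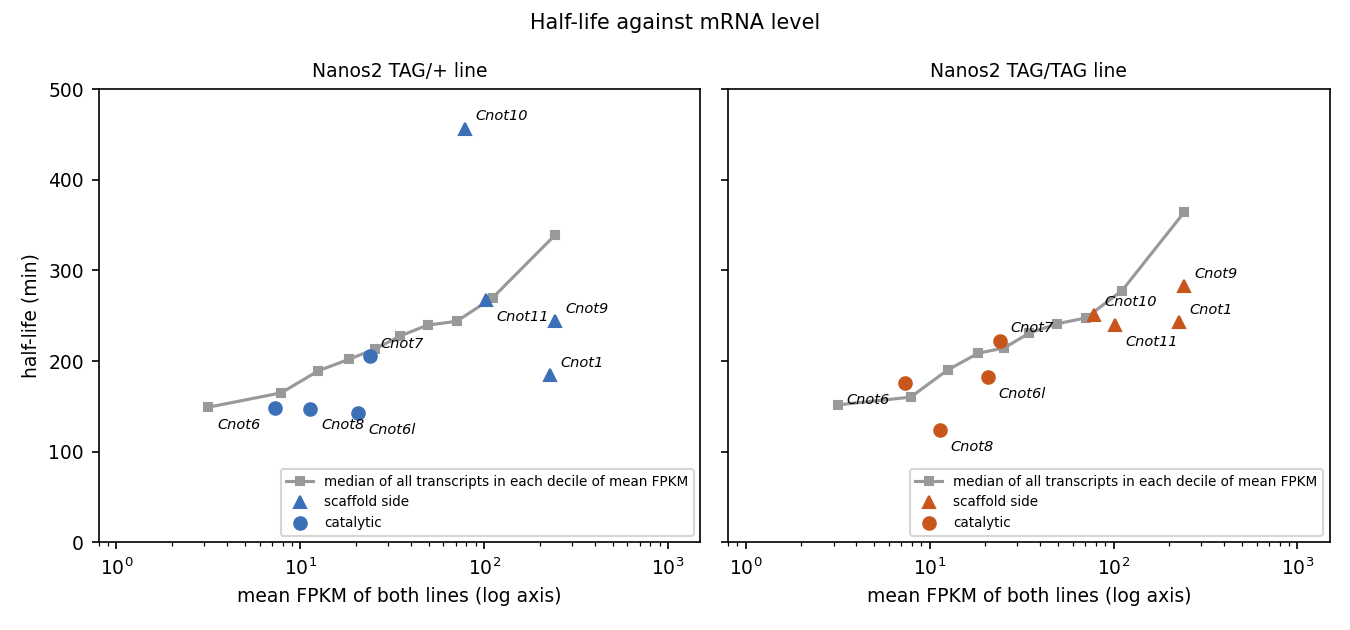
Half-life (min) against mean FPKM of both lines (log axis) for the 8 subunit mRNAs, scaffold side as triangles and catalytic as circles, in the TAG/+ line (left) and the TAG/TAG line (right). Grey squares are medians of all transcripts in each decile of mean FPKM, from 149 to 339 min at the left and 152 to 365 min at the right; *Cnot1* lies below the line at 184 and 243 min.

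Genes that work with the complex were taken from lists of its cofactors, recruiters and related enzymes. Of 8 cofactors 5 had an FPKM and 7 a half-life. *Tob1*, whose protein links CNOT7 and CNOT8 to the poly(A)-binding protein, was 7.89 FPKM in the TAG/+ line and 18.9 in the TAG/TAG line (197 and 508 reads), and was the 1 cofactor past 1.5-fold, with 0 lower. *Cnot4*, a ubiquitin ligase that is loosely bound to the complex, had 52.5 and 70.3 FPKM. In half-life *Btg2*, another adaptor of CNOT7 and CNOT8, was past 1.5-fold longer, with 106 and 196 min. *Btg1*, with 125 and 81.5 min, and *Tnks1bp1*, with 225 and 122 min, were past it in the other direction. The cofactors thus had 1 of 5 past the threshold in abundance, beside 42.2% of all genes, and 3 of 7 in half-life, beside 20.7% of all transcripts.

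Of 25 RNA-binding recruiters and partners 23 had an FPKM, 3 higher and 1 lower past 1.5-fold in the TAG/TAG line, with a median log2 ratio of -0.01. Over all genes 22.8% were higher and 19.4% lower. The higher ones were *Zfp36l2*, which binds AU-rich elements, with 27.5 and 50.2 FPKM, and *Cpeb2* and *Cpeb3*, which rested on 7 and 22 reads and on 16 and 90 reads. The lower one was *Ddx6*, a helicase that binds CNOT1, with 46.9 and 27.1 FPKM. Of 21 recruiters with a half-life 1 was longer past 1.5-fold (*Patl1*, 124 and 232 min) and 2 shorter (*Tnrc6c*, 295 and 181 min, and *Cpeb3*, 175 and 81.9 min), beside 20.7% of all transcripts past it in either direction.

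Other deadenylases and poly(A)-binding proteins were read against the same shares of all features, 42.2% in abundance and 20.7% in half-life. Of 6 other deadenylases with an FPKM 1 was past 1.5-fold, *Angel1* with 78.4 FPKM in the TAG/+ line and 119 in the TAG/TAG line. *Pan2* and *Pan3*, which encode the enzyme that trims long tails before CCR4-NOT, had 49.6 and 63.4 FPKM and 44.9 and 39.3 FPKM. Of 5 with a half-life *Toe1* was past 1.5-fold shorter, with 218 and 118 min. Of 6 poly(A)-binding proteins and their partners with an FPKM 0 were past 1.5-fold, among them *Pabpc1* with 748 and 658 FPKM. Of 4 with a half-life *Paip2*, an inhibitor of PABPC1, was past it, with 325 and 531 min. The median log2 ratio of FPKM was 0.11 over the 5 cofactors, 0.06 over the 6 other deadenylases and -0.06 over the 6 poly(A)-binding proteins and partners, beside 0.01 over all genes. That of half-life was -0.17, 0.22 and 0.24 in the same order and 0.01 over the 21 recruiters, beside 0.04 over all transcripts.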

How the data were processed

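RNA-seq FPKM for 13904 genes (1 library per line) and SLAM-seq half-lives in minutes for 5806 transcripts (1 value per line) were deposited by the authors and taken as they stood. The submitters' processing notes name kallisto and DESeq2 for RNA-seq, with no role, and the annotation is not given in the sources used here. Multiplying FPKM by the mean length of a gene's GENCODE M21 transcripts and by a library size of 10908790 (*Nanos2* TAG/+) or 11738620 reads (*Nanos2* TAG/TAG) gave whole reads, within 0.01, for 100% of the genes above 0 among the 13884 with an annotated length, against 19.5% and 19.6% with merged exon lengths. The authors computed the half-lives, in a unit other than a count, from SlamDunk conversion rates by fitting first-order decay, after collapsing technical replicates. The labels call the sets of half-lives CTL and EXP, and their lines were taken from the names tagplus and tagtag under which they were deposited. The FPKM values are headed GG and Gp, which were read as both alleles tagged and as tagged over plus. The direction of each FPKM difference between the lines rests on that reading.

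Intervals were exact Poisson (single values) and exact conditional binomial (ratios and shares) at 95%. For log2 ratios 0.1 was added to FPKM. A difference past 1.5-fold was a rule of size and not a test. Positions and 3′ UTRs of the principal transcript were from GRCm38 with GENCODE M21, and 50-mers were searched in all its transcripts, on both strands. The members, the gene lists and the comparisons were chosen with earlier results of these data known. Values were given for all 10 subunits, and for listed genes only where a sentence turned on them. Alternatives were another fold, a pseudocount of 1, centring on the median, FPKM rescaled to an equal total per library, limits on FPKM, reads or half-life, means in place of medians, 5 bins in place of deciles, and other gene lengths. The other gene lengths and the background of at least 100 reads were chosen after seeing the data. Read recovery was tested on simulated data. CRAC libraries, in which RNA crosslinked to NANOS2 is sequenced (2 from *Nanos2* TAG/TAG line 5 and 2 from *Nanos2* +/+ line 1), were not analysed here. Python 3.11.15, numpy 2.4.6, pandas 2.3.3, scipy 1.17.1 and matplotlib 3.10.9 were used.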

Additional observations from a re-analysis of the deposited data

How the results depend on the processing

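With 1 library per line and 1 half-life per line, no value has a replicate check, and low reads limit *Cnot8* and *Cnot6* most. The number of subunits past the abundance threshold was 5, and it was 1 with a 2-fold threshold (*Cnot8*), 3 with a pseudocount of 1 (*Cnot2*, *Cnot6l* and *Cnot8*) and 3 with FPKM rescaled to an equal total per library (*Cnot6*, *Cnot6l* and *Cnot8*), which shifted the median log2 ratio of all genes by 0.08. The number past the half-life threshold was 1, and 0 with a 2-fold threshold. The log2 ratio of scaffold-side to catalytic median FPKM was 2.57 in the TAG/+ line, and 2.98 with means, 3.45 with principal transcripts and 3.03 with merged exons. In the TAG/TAG line it was 2.80, and 3.14, 3.00 and 2.96 in the same order. The share of *Cnot6* was 43.9% and 68.8% with principal transcripts and 26.2% and 50.03% with merged exons (TAG/+ and TAG/TAG), and that of *Cnot8* 30.9% and 57.9% with merged exons. With merged exons 2 in place of 1 subunits were above the median half-life of their decile in the TAG/+ line (*Cnot7* and *Cnot10*). In the TAG/TAG line 3 were above it, and 2 with bins of its own FPKM, 2 with principal transcripts (*Cnot6l* and *Cnot7*) and 2 with merged exons (*Cnot6* and *Cnot7*). Rescaling also moved the log2 ratios of *Cnot1* to -0.40, *Cnot9* to 0.19 and *Cnot11* to 0.30. In the TAG/TAG line the larger share of a pair passed to *Cnot6* with principal transcripts (about even with merged exons) and to *Cnot8* with merged exons, and *Cnot6*, *Cnot6l* and *Cnot10* changed side of their decile median with gene length. No difference between the lines in a subunit's FPKM or half-life changed direction under the alternatives run. The same held for the order of the scaffold-side and catalytic medians of FPKM and of half-life. The median ratios of these sets to their deciles, which were close in the TAG/+ line, changed order there with merged exons. No paired analysis was possible because the RNA-seq groups hold 1 library each and the half-lives were pooled over replicates by the authors.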
